A study of Mus musculus with 5 samples.

Results

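Thin limb cells of the loop of Henle were examined in droplet single-cell RNA sequencing of mouse kidneys at an acute stage (acute kidney injury, AKI) and a later chronic stage (chronic kidney disease, CKD) after a toxin. A barcode was kept if at most 30% of its UMIs (unique molecular identifiers, each standing for 1 captured RNA molecule) came from mitochondrial genes and if at least 200 genes were detected. A kept cell was counted as a thin limb cell if it held at least 3 UMIs in sum of Slc14a2, Bst1, Fst and Lypd2, if at least 2 of these 4 genes were detected, if Ptprc and Pecam1 were at 0, and if Slc12a1 and Slc12a3 were each at 2 UMIs or fewer. The rule found 425 cells among 60043 kept cells, of 72896 barcodes in all. All mice were wild-type male C57BL/6 of 8 to 10 weeks. AKI mice received aristolochic acid I (AAI), a plant toxin of the proximal tubule, by intraperitoneal injection, with 3 mg/kg per dose and a dose every 3 days until week 2, and CKD mice received the same course followed by 2 weeks without injections. The control received no AAI; the study describes it both as a baseline before treatment and as mice given vehicle on the schedule of the injections, and the label says neither. There was 1 control library, 2 AKI libraries (AKI 1 and AKI 2) and 2 CKD libraries (CKD 1 and CKD 2). The labels do not say whether the libraries of a group came from separate mice, so p-values measure the spread between these libraries, which may be technical.

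The loop of Henle carries tubular fluid down into the medulla and back. Its descending thin limb is permeable to water through the water channel Aqp1, its ascending thin limb passes chloride but not water, and urea transporters of the Slc14a2 gene recycle urea within the medulla. The epithelium is flat, poor in mitochondria and exposed to the highest salt and urea concentrations of the body, against which cells accumulate organic osmolytes. The rule genes encode a urea transporter (Slc14a2), follistatin, which binds activins (Fst), a cell surface enzyme of nicotinamide metabolism (Bst1) and a small membrane-anchored protein (Lypd2).

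Thin limb cells were deep cells in every library except CKD 1. Their median was 18599 UMIs in the control, 20551 and 18880 in AKI 1 and AKI 2, and 14835.5 in CKD 2, but 3794 in CKD 1, where 62.7% of them held under 5000 UMIs (7.27 to 16.4% elsewhere). The median over all kept cells lay between 3151 and 5774.5 UMIs. Neighbouring tubule cells, defined below, were also shallowest in CKD 1. The median of principal cells was 3335 there and 11556 to 21060.5 elsewhere, and that of thick ascending limb cells 3761 there and 4760.5 to 12878 elsewhere. UMIs of thin limb cells summed to between 506638 (CKD 2) and 2162708 (CKD 1) per library, and the largest cell of CKD 2 held 16.2% of that sum. No thin limb barcode occurred among the thin limb cells of another library, although 132 kept control barcodes also occurred among kept CKD 2 cells and 2 thin limb barcodes of CKD 2 occurred among kept control cells. Free RNA had not been removed from the counts, and T lymphocytes, which should lack tubular transcripts, served to show its level.

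Thin limb cells made up 0.600% of kept cells in the control (55 of 9168, exact 95% interval 0.452 to 0.780). They were 0.437% of AKI 1 (49 of 11203) and 0.507% of AKI 2 (55 of 10852), and 1.26% of CKD 1 (244 of 19314) and 0.231% of CKD 2 (22 of 9506). The CKD libraries lay on both sides of the AKI libraries, so the groups overlapped. The mean was 0.472% ± 0.0491 (SD, n = 2) in AKI and 0.747% ± 0.730 (SD, n = 2) in CKD, a difference of 0.275 percentage points against a pooled SD of 0.517. Without CKD 1 the difference was -0.241 points and without CKD 2 it was 0.791 points, so that its direction rested on CKD 1. With 2 libraries against 2 no exact permutation test can give a two-sided p under 0.33, and none was made. The libraries held very different shares of leukocytes, and among kept cells without a Ptprc UMI thin limb cells were 0.876% of the control, 1.58% and 2.04% of AKI 1 and AKI 2, and 2.73% and 1.5% of CKD 1 and CKD 2. Intervals cover counting error only.

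**Figure D1:**
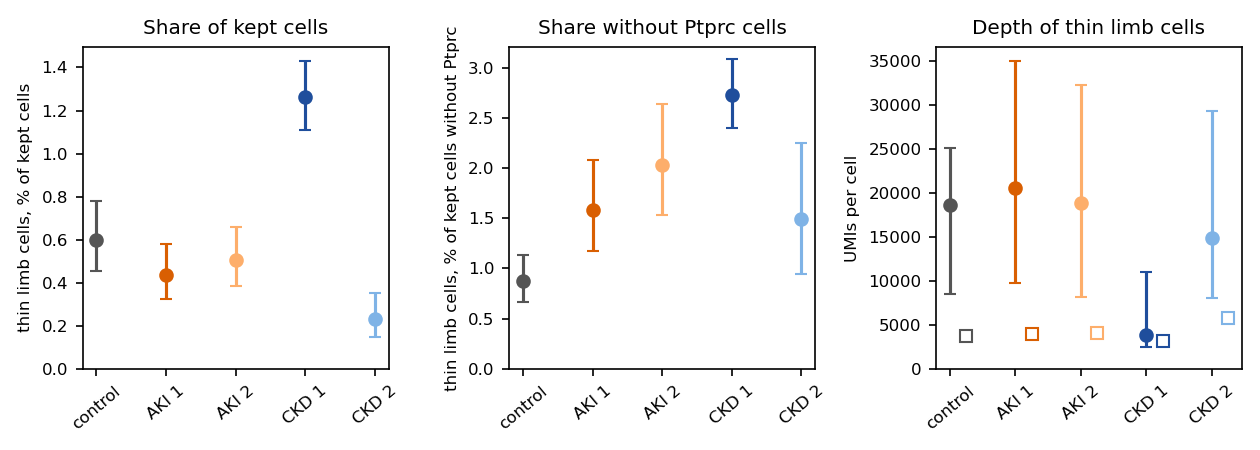
Share of thin limb cells among kept cells (left) and among kept cells without a Ptprc UMI (middle), as points with exact 95% binomial intervals, and UMIs per thin limb cell (right), as the median with the quartiles, beside the median of all kept cells (open squares), for each of the 5 libraries. CKD 1 has the highest share (1.26%) and the shallowest thin limb cells (median 3794 UMIs).

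The rule genes, given as a description because they chose the cells, differed in how many cells carried them. Bst1 was detected in 84.8 to 100% of thin limb cells per library, Slc14a2 in 57.1 to 86.4%, Fst in 36.4 to 71.4% and Lypd2 in 28.6 to 46.3%. The same genes were detected in at most 3.67% of T lymphocytes, whose median depth was 3615 to 5952.5 UMIs. Slc14a2 stood at 27.7 UMIs per 10000 UMIs of thin limb cells in the control, 6.91 and 16.8 in AKI 1 and AKI 2, and 28.5 and 8.03 in CKD 1 and CKD 2. Fst stood at 5.96 in the control, 7.91 and 9.18 in AKI, and 13.1 and 9.87 in CKD. The median cell held 47 rule UMIs in the control, 28 and 38 in AKI 1 and AKI 2, 9 in CKD 1 and 32 in CKD 2. The threshold of 3 UMIs was met exactly by 4 cells in each AKI library, by 35 cells of CKD 1 and by 0 cells of the control and CKD 2. The 35 CKD 1 cells just inside it held 19.3 Cryab and 4.18 Aqp1 UMIs per 10000, and the 33 CKD 1 cells just outside it, with 2 UMIs, held 20.2 and 4.32, whereas all 244 thin limb cells of CKD 1 held 80.5 and 24.1. The cells at the threshold also held 8.68 UMIs per 10000 of the proximal tubule gene Slc34a1 inside and 8.95 outside it, against 2.86 in all thin limb cells of CKD 1.

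The label was checked against 18 thin limb markers that the rule did not use. Their summed level in thin limb cells was 134 UMIs per 10000 in the control, 94.9 and 110 in AKI 1 and AKI 2, and 124 and 118 in CKD 1 and CKD 2. It was 14.0 to 22.0 in thick ascending limb cells, 12.3 to 25.7 in collecting duct principal cells and 1.92 to 6.65 in T lymphocytes. Most of the sum in thin limb cells came from Cryab (50.8 to 80.5 per library) and Aqp1 (21.5 to 50.1). Defining markers of other tubule cells were low. Markers of principal cells and inner medullary collecting duct, which also uses Slc14a2, summed to 0.475 to 2.64 against 124 to 160 in principal cells, and thick ascending limb markers to 2.51 to 6.21 against 137 to 325 in thick ascending limb cells. These lists include genes that chose the cells, Aqp2 and Fxyd4, and Slc12a1 and Umod, so part of the contrast was set in advance. Without those genes, 7 of 7 principal cell markers tested were lower in thin limb cells than in principal cells (median log2 difference -6.57, edgeR). Against the thick ascending limb, 7 of 7 of its markers were lower (-5.80). Proximal tubule markers reached 9.15 in CKD 1 and 1.28 to 4.88 elsewhere. Within these limits the label held for the summed cells, and the markers were not even over them. Cells with Fst and without Slc14a2 in AKI, 21 of the 49 in AKI 1 and 10 of the 55 in AKI 2, held 4.71 and 5.70 Aqp1 UMIs per 10000, with a median cell at 0 in AKI 1, whereas such cells held 48.7 in the control. Their 18 markers summed to 69.0 and 122 in AKI 1 and AKI 2 against 112 in the control, with Cryab at 47.0 and 96.6 against 47.0. In CKD 1 and CKD 2 the sum in such cells was 39.4 and 24.5. In CKD 1 the 50 cells of this kind held 41.9 UMIs per 10000 of proximal tubule markers and 50.8 of MHC class II genes. Aqp1 in cells of this kind was at 9.94 in CKD 1 and 7.48 in CKD 2. The label was thus not secure for cells with Fst and without Slc14a2 in the treated libraries.

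Thin limb cells were then compared with their neighbour in the loop, the thick ascending limb, in all 5 libraries. Thick ascending limb cells were kept cells with at least 5 Slc12a1 and 1 Umod UMIs (1286 cells), and the test was edgeR's quasi-likelihood test on UMIs summed per library and cell type, with the library as a block. Of 9203 genes tested, 36.1% passed an adjusted p under 0.05, 18.4% (1694 genes) higher and 17.7% (1625 genes) lower in thin limb cells. Of the 14 markers tested that the rule did not use, 10 were higher and 3 lower, with a median difference of 1.88 on the log2 scale beside -0.016 over all genes. The water channel Aqp1 held 43.3 UMIs per 10000 in thin limb cells of the control, 21.5 and 24.1 in AKI 1 and AKI 2, and 24.1 and 50.1 in CKD 1 and CKD 2. Thick ascending limb cells held 1.47 in the control and 0.0218 to 0.186 in the other libraries, and T lymphocytes 0.221 to 1.17. The cell types did not overlap in any library (log2 difference 7.15 ± 0.64 SE, adjusted p 1.09e-05, edgeR). The markers that were lower included Cldn10, a tight junction protein of the ascending limb (-5.24 ± 0.21), and the transcription factor Prox1 (-2.98 ± 0.32).

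Genes with the largest difference in favour of thin limb cells included secreted proteins and transporters. Ankrd1, a target of the YAP pathway, was at 4.06 UMIs per 10000 in the control, 9.92 and 9.49 in AKI, and 5.16 and 4.93 in CKD, against 0.109 to 0.390 in thick ascending limb cells (log2 difference 4.73 ± 0.22). Slc4a11, a membrane transporter of the SLC4 family, was at 1.78 to 2.95 against 0.0205 to 0.124 (4.76 ± 0.27). The others named here were Rtn1 (5.46), the proteoglycan Podn (5.32), the amino acid transporter Slc6a18 (5.13), the Wnt antagonist Frzb (5.08), the cytokine Cntf (4.91), the telomerase subunit Tert (4.89), the cilium protein Cfap52 (4.84) and the Rac regulator Chn2 (4.68). On the other side, the protease Pappa2 had 0 UMIs in thin limb cells of any library and 810 in thick ascending limb cells, at least 135-fold lower when 3 UMIs over all thin limb cells are taken as the floor. The Wnt antagonist Sfrp1 (-7.96 ± 0.27), the magnesium and calcium pore protein Cldn16 (-7.79 ± 0.31) and the sodium glucose transporter Slc5a1 (-6.98 ± 0.29) were also lower, with adjusted p of 8.03e-08, 1.24e-07 and 1.48e-07 (edgeR).

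**Figure D2:**
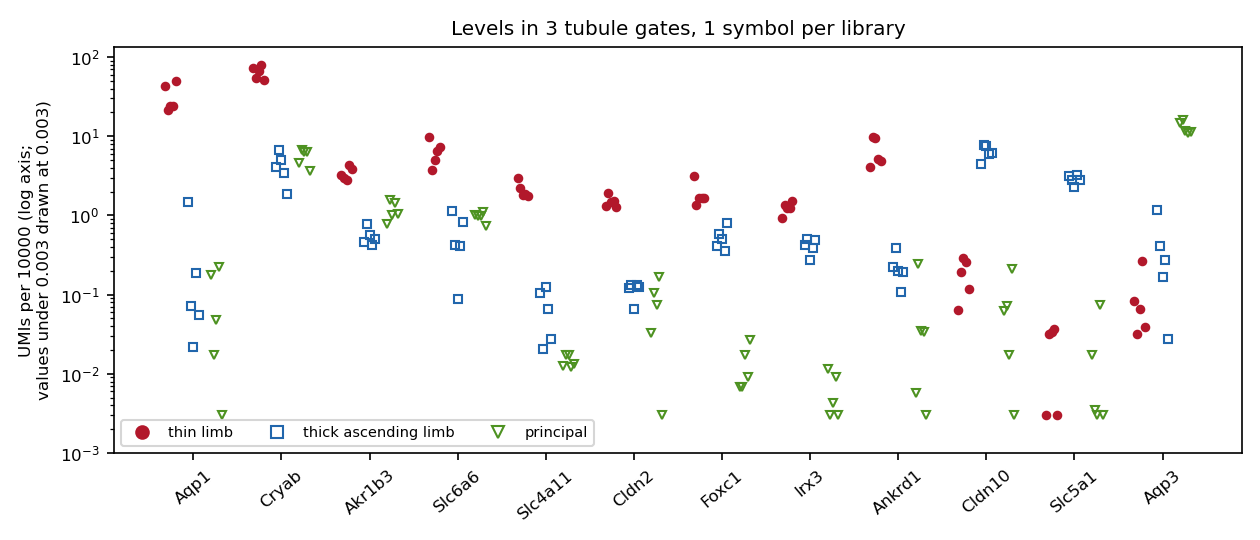
UMIs per 10000 (log axis) of 12 genes in thin limb cells (filled circles), thick ascending limb cells (squares) and collecting duct principal cells (triangles), with 1 symbol per library. Aqp1, Cryab, Slc6a6 and Slc4a11 are higher in thin limb cells in every library, whereas Cldn10 and Slc5a1 are lower than in the thick ascending limb.

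Genes for life in a hypertonic medulla stood high. Of 9 osmolyte and hypertonicity genes tested against the thick ascending limb, 6 were higher and 1 lower (median 0.79). Cryab and Akr1b3 of this list also belong to the thin limb markers read above. The small heat shock protein Cryab was at 71.9 UMIs per 10000 in the control, 54.8 and 67.3 in AKI, and 80.5 and 50.8 in CKD, against 1.88 to 6.65 in the thick ascending limb (3.88 ± 0.26). Aldose reductase Akr1b3, which makes sorbitol (2.5 ± 0.19), the taurine transporter Slc6a6 (3.51 ± 0.30), the kinase Sgk1 (1.57 ± 0.21) and the tonicity factor Nfat5 (0.79 ± 0.11) were higher, and the inositol transporter Slc5a3 was lower (-3.08 ± 0.18). Of 11 water, urea and ion transport genes, 7 were lower and 2 higher (median -1.68), with the sodium pump subunits Atp1b1 at -1.06 ± 0.18 and Fxyd2 at -1.68 ± 0.26. Nuclear respiratory chain genes were lower in 13 of 20 (median -0.61), and 1 was higher, the complex I subunit Ndufb8 (1.36 ± 0.16). Among 14 tight junction genes 8 were higher (median 0.81), including Cldn2, which forms cation pores (3.52 ± 0.16), Cldn4 (2.37 ± 0.23) and Cldn7 (1.12 ± 0.15), and 1 was lower, Cldn10.

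Stress and signalling genes differed as well. Immediate early and dissociation genes were higher in 12 of 14 (median 1.30), with the transcription factor Egr1 at 1.55 ± 0.17, the heat shock gene Hspa1a at 1.57 ± 0.20 and Fos at 1.04 ± 0.20, and this list summed to 266 to 445 UMIs per 10000 in thin limb cells, 108 to 156 in the thick ascending limb and 81.1 to 139 in T lymphocytes. The part of tissue dissociation in that difference was not tested. Of 13 p53 response genes 7 were higher and 0 lower (median 0.71), with the cell cycle inhibitor Cdkn1a at 1.98 ± 0.25, Phlda3 at 2.12 ± 0.16 and the stress cytokine Gdf15 at 2.11 ± 0.20. Interferon response genes were higher in 10 of 17 and lower in 0 (median 0.86), led by Ifit3 (3.81 ± 0.38). Injury genes split, with 8 of 17 higher and 3 lower (median 0.85): the calcium binding protein S100a6 (2.60 ± 0.31), the keratin Krt18 (2.17 ± 0.13) and Anxa2 (1.46 ± 0.18) were higher, and the secreted injury proteins Lcn2 (-3.35 ± 0.71) and Clu (-2.86 ± 0.41) were lower. Of 17 matrix and TGF-beta genes 7 were higher and 5 lower (median 0.44), among them the collagenase inhibitor Timp3 (1.81 ± 0.19) and the growth factor Pdgfb (2.17 ± 0.15) on the higher side and Bmp7 (-2.65 ± 0.31) on the lower. Of 14 chemokine, cytokine and adhesion genes 5 were higher, among them the macrophage growth factor Csf1 (2.39 ± 0.21) and the neutrophil attractant Cxcl1 (2.17 ± 0.38), and 0 were lower (median 0.76). Of 10 activin and follistatin pathway genes 2 were higher and 3 lower (median 0.16). Fstl1 was higher by 2.03 ± 0.20, and Smad2 by 0.58 ± 0.16, which did not pass with DESeq2, without possible doublets, without CKD 1, without the control or at a mitochondrial limit of 15% (0.28, adjusted p 0.193, edgeR). MHC class I genes were higher in 5 of 11 and lower in 0 (median 0.42), MHC class II genes in 1 of 6 and 0 (median -0.12), glycolysis genes in 7 of 15 and 2 (median 0.08) and metallothionein and oxidative stress genes in 6 of 13 and 2 (median 0.53). Macrophage markers, which summed to 0.730 to 6.26 in thin limb cells and 0.499 to 3.53 in the thick ascending limb, were higher in 2 of 6. Without cells that could be doublets, which left 107 thin limb cells, 1400 of 6317 genes tested passed, against 3319 of 9203 with all cells.

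Collecting duct principal cells, defined by at least 5 Aqp2 and 1 Fxyd4 UMIs (1403 cells), were the other neighbour. Of 9795 genes tested against them 37.2% passed, 19.4% (1903 genes) higher and 17.8% (1743 genes) lower in thin limb cells, with a median of 0.0023 over all genes. Of the 13 unused thin limb markers tested, 9 were higher and 1 lower. The metal transporter Slc39a8 was at 0.620 to 2.28 UMIs per 10000 in thin limb cells and at most 0.00343 in principal cells (9.15 ± 0.27, adjusted p 1.43e-08, edgeR). Angpt2, a ligand of the vascular receptor Tie2, was at 5.67 in the control and 0.789 to 1.97 in the other libraries against at most 0.0153 (8.66 ± 0.35). Other genes of large difference were Podn (8.54), Aqp1 (8.29), the phosphate transporter Slc34a2 (8.29), Frzb (8.07), the forkhead factor Foxc1 (7.65), the matrix protein Spon1 (7.55), Slc4a11 (7.25), Cntf (7.19) and the Iroquois factor Irx3 (7.11). Foxc1 and Irx3 were also higher than in the thick ascending limb, by 1.74 ± 0.24 and 1.43 ± 0.15. Principal cells held more of the basolateral water channels Aqp4 (-7.60 ± 0.19) and Aqp3 (-7.00 ± 0.39) and of Hsd11b2, which inactivates glucocorticoids (-7.08 ± 0.50). The unnamed transcript 9230102O04Rik had 2 UMIs in thin limb cells and 1275 in principal cells, a ratio of 220 with a counting interval of 60.7 to 1815.

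The same lists were read against principal cells. Osmolyte genes were higher in 5 of 10 and lower in 0 (median 0.32), with Cryab at 3.53 ± 0.16, Slc6a6 at 2.62 ± 0.19 and Akr1b3 at 1.53 ± 0.15. Transport genes split 4 higher and 4 lower of 11 (median 0.53), with the sodium proton exchanger Slc9a3 (4.45 ± 0.29) and Fxyd2 (1.95 ± 0.30) among the higher, so that Slc9a3 and Fxyd2 lay between the neighbours. Tight junction genes were higher in 4 of 14 and lower in 2 (median 0.31), with Cldn2 at 4.27 ± 0.32, Cldn1 at 3.18 ± 0.56 and Cldn8 at -1.57 ± 0.21, while Cldn4 did not pass (0.12 ± 0.17, adjusted p 0.596, edgeR). Respiratory chain genes were lower in 11 of 20 and higher in 1 (median -0.36), again Ndufb8 (1.37 ± 0.14). Injury genes split 8 and 4 of 17 (median 0.29), with S100a6 at 4.70 ± 0.47 and the keratin Krt7 at -2.41 ± 0.12. Higher and lower counts were 9 and 0 of 13 for p53 response (median 0.76), 13 and 0 of 14 for immediate early genes (0.74), 7 and 1 of 19 for interferon response (-0.05), 8 and 0 of 14 for chemokines, cytokines and adhesion (1.35), 10 and 3 of 17 for matrix and TGF-beta (0.91), 4 and 0 of 10 for activin and follistatin (0.46), 1 and 0 of 11 for MHC class I (-0.29), 1 and 0 of 6 for MHC class II (0.45), 4 and 2 of 15 for glycolysis (0.03) and 4 and 0 of 13 for oxidative stress (0.43). Macrophage markers were higher in 3 of 6. Without possible doublets 1472 of 6533 genes tested passed, against 3646 of 9795 with all cells.

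The cells that met the rule were not of a single kind, and the rule genes Slc14a2 and Fst divided them. For cells with Fst and without Slc14a2 in the treated libraries the thin limb label was not secure, as their low Aqp1 showed above. This split was made after the values had been seen, so it is described without a test. In the control 30 cells held Slc14a2 without Fst, 19 held Fst without Slc14a2, 2 held both and 4 neither. In AKI 1 the cells with Slc14a2 alone, both and Fst alone numbered 14, 14 and 21, in AKI 2 they numbered 22, 23 and 10, in CKD 1 114, 77 and 50, and in CKD 2 14, 5 and 3. Cells with both genes were thus 3.64% of the control (exact 95% interval 0.443 to 12.5), 28.6% and 41.8% of AKI 1 and AKI 2, and 31.6% and 22.7% of CKD 1 and CKD 2. The Slc14a2-only cells held the natriuretic peptide protease Corin, at 3.16 UMIs per 10000 in the control, 0.0470 and 0.219 in AKI, and 1.31 and 0.294 in CKD, and the Fst-only cells held 0 Corin UMIs in every library. Hbegf, a ligand of the EGF receptor, was at 27.3 to 36.1 in Slc14a2-only cells at 3.40 to 18.0 in cells with both genes of the AKI and CKD libraries, and at 25.2 and 10.8 in Fst-only cells of AKI 1 and AKI 2 and 1.45 to 2.64 in those of the other libraries. Immediate early genes summed to 291 to 600 in Slc14a2-only cells, 83.9 to 239 in Fst-only cells and 139 to 323 in cells with both genes, where AKI 2 (323) lay above its Slc14a2-only cells (291).

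Fst-only cells of the control and cells with both genes of the treated libraries shared high levels of another set of genes, and Fst-only cells of AKI did not. The respiratory chain subunits Cox7a1 and Atp5g1 stood at 5.67 and 14.9 UMIs per 10000 in Fst-only cells of the control, against 0.216 and 2.67 in its Slc14a2-only cells. In cells with both genes of the AKI and CKD libraries Cox7a1 was at 1.87 to 2.54 and Atp5g1 at 7.68 to 13.1, and Slc14a2-only cells of those libraries held 0.128 to 0.294 and 3.66 to 4.39. Fst-only cells of AKI held 0.403 and 0.342 of Cox7a1 and 4.68 and 4.45 of Atp5g1, close to the Slc14a2-only cells. For Cox7a1 and Atp5g1, those of CKD 1 held 1.21 and 11.2, and the 3 cells of CKD 2 held 0.445 and 5.08. The respiratory chain list as a whole summed to 170 to 224 in cells with both genes, 94.8 to 123 in Slc14a2-only cells, and 266 in the control, 102 and 108 in AKI, and 192 and 117 in CKD for Fst-only cells. Spp1, which encodes osteopontin, was at 152.6 in Fst-only and 12.4 in Slc14a2-only cells of the control, and at 280 to 352 in cells with both genes of the other libraries, while Fst-only cells of AKI held 99.0 and 87.5, below the 139.6 and 132 of Slc14a2-only cells. In the Fst-only cells of AKI, S100a6 was at 110 in AKI 1 and 216 in AKI 2 against 3.82 in the control, and Krt8 at 33.5 and 28.5 against 0.966.

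**Figure D3:**
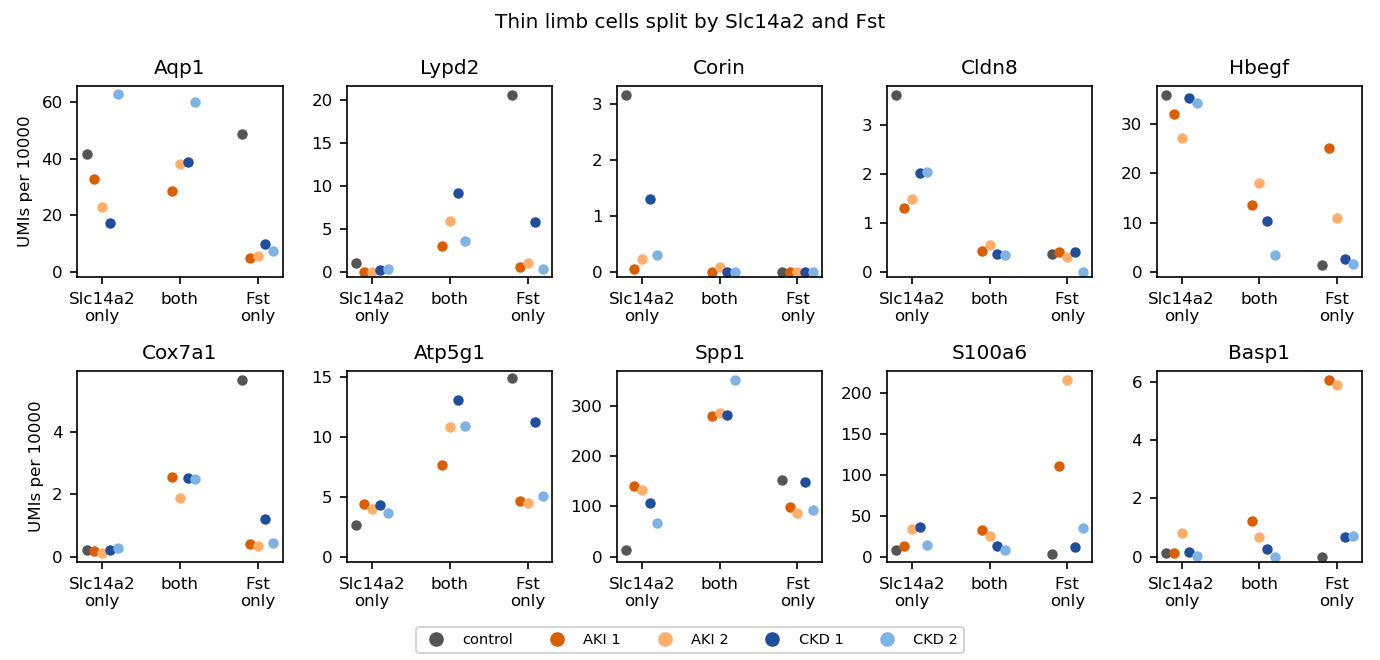
UMIs per 10000 of 10 genes in thin limb cells with Slc14a2 only, with both Slc14a2 and Fst, and with Fst only, 1 point per library on linear axes (the control is not drawn for both genes, where it had 2 cells). Corin and Hbegf are highest in Slc14a2-only cells, and S100a6 and Basp1 are highest in the Fst-only cells of both AKI libraries.

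CKD was compared with AKI over the 4 treated libraries. Of 9077 genes tested, 3 passed an adjusted p under 0.05 (0.0331%), of which 0 rose (0%) and 3 fell (0.0331%), and 733 genes (8.08%) had an unadjusted p under 0.05. DESeq2 gave 36 genes, 5 of them higher in CKD. Without possible doublets only 2354 genes were tested by edgeR, and 1, Basp1, passed. Cldn1 and Wnt10a were not among the genes tested there. Basp1 (ENSMUSG00000045763), a membrane protein of growing cell processes, was at 0.0737 UMIs per 10000 in the control, 2.58 and 1.88 in AKI 1 and AKI 2, and 0.245 and 0.178 in CKD 1 and CKD 2. It fell by 3.28 ± 0.27 on the log2 scale (adjusted p 0.0298, edgeR). The tight junction gene Cldn1 (ENSMUSG00000022512) was at 0.258 in the control, 0.628 and 0.733 in AKI, and 0.0647 and 0.0592 in CKD, and fell by 3.37 ± 0.30 (0.0298). The secreted ligand Wnt10a (ENSMUSG00000026167) was at 0.0184 in the control, 0.507 and 0.392 in AKI, and 0.00925 and 0.0197 in CKD. It fell (adjusted p 0.0299, edgeR) with 110 UMIs in the AKI libraries and 3 in the CKD libraries, a ratio of 40.1 with a counting interval of 13.4 to 197. Both AKI libraries were above both CKD libraries and above the control for each of the 3.

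Part of the cells carried these genes. Basp1 was detected in 24 of 49 cells of AKI 1 and 12 of 55 of AKI 2, against 37 of 244 in CKD 1 and 3 of 22 in CKD 2. Of its 321 and 226 UMIs in AKI 1 and AKI 2, 271 and 155 lay in the Fst-only cells. Cldn1 was detected in 17 of 49 and 14 of 55 AKI cells, and 43 of its 78 and 52 of its 88 UMIs lay in the Fst-only cells. The thin limb label was not secure for the Fst-only cells of AKI. Whether the falls of Basp1 and Cldn1 belong to the thin limb was not tested. Wnt10a was detected in 13 and 7 AKI cells, and 1 of the 7 held 46.8% of its UMIs in AKI 2. Restricted to cells with a Slc14a2 UMI, a setting added after the data had been seen, none of the 3 passed (Basp1 -2.11, adjusted p 0.178, Cldn1 -3.10, 0.0579, and Wnt10a -5.47, 0.0975, edgeR), and Adamts5, C3 and Krt20 passed instead. Without AKI 1 or without AKI 2 the count was 0 genes (299 and 428 at an unadjusted p under 0.05), without CKD 1 it was 537 and without CKD 2 it was 575. In counts simulated at the depth of these libraries, with a common spread for all genes, 26% of 2-fold and 86% of 4-fold changes were recovered. Spread that differs between genes or libraries was not simulated, so these shares need not hold for the real counts.

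**Figure D4:**
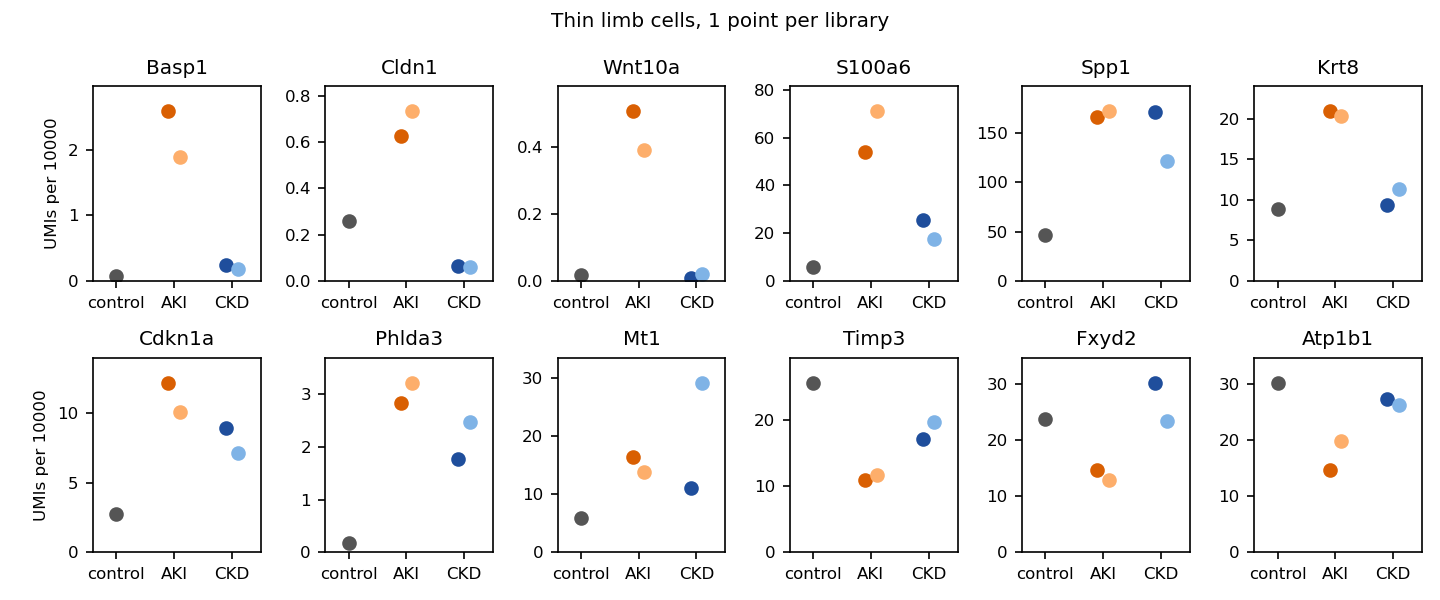
UMIs per 10000 of 12 genes in thin limb cells, 1 point per library (grey control, orange AKI, blue CKD, the lighter tone for the second library of a group), on linear axes from 0. Basp1, Cldn1 and Wnt10a fell from AKI to CKD, and the other 9 genes are shown as levels.

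Beside the control, thin limb cells of AKI held higher levels of injury and p53 genes. The control had 1 library, so no test was made, and the AKI and CKD libraries are read against the same control cells. A gene was counted where both libraries of a group lay at least 2-fold from the control after 0.1 UMIs per 10000 had been added, which held in AKI for 228 genes higher (2.51%) and 95 lower (1.05%) of the 9077, and in CKD for 60 higher (0.661%) and 39 lower (0.43%). Of the 18 tubular injury genes 10 were higher in AKI and 0 lower, and 4 were higher and 1 lower in CKD, with median log2 differences from the control of 1.20 and 0.30 beside -0.022 and -0.056 over all genes. S100a6 was at 5.92 UMIs per 10000 in the control, 53.9 and 71.0 in AKI, and 25.6 and 17.7 in CKD. Spp1 was at 46.7, then 167 and 172, then 171 and 122, so that over the summed cells the treated libraries were alike and the control apart. This held in Slc14a2-only cells, at 12.4 in the control and 66.1 to 139.6 in the treated libraries. It did not hold in Fst-only cells, at 152.6 in the control and 87.5 to 149 in the treated libraries. The keratin Krt8 was at 8.89 in the control, 20.9 and 20.4 in AKI, and 9.43 and 11.3 in CKD, and Lcn2 at 0.387, then 3.25 and 3.96, then 0.462 and 1.20. Cd24a held at 11.5 to 12.2 in all 5 libraries. These levels run over thin limb cells of all kinds, which differed. In AKI 1 and AKI 2, S100a6 was at 110 and 216 in Fst-only cells, 33.2 and 24.8 in cells with both genes, and 12.8 and 34.1 in Slc14a2-only cells. Krt8 was at 33.5 and 28.5 in Fst-only cells, 7.95 and 17.7 in cells with both genes, and 19.1 and 18.4 in Slc14a2-only cells. The Slc14a2-only cells of the control held 7.65 of S100a6 and 11.1 of Krt8, and its Fst-only cells 3.82 and 0.966. Between AKI and CKD, 12 of the 18 genes were lower in both CKD libraries than in both AKI libraries and 1 was higher, beside 22.3% and 16.4% of all genes, with a median of -1.17. By edgeR 0 of the 18 passed the adjusted threshold, and 11 had an unadjusted p under 0.05, as did 8.08% of all genes.

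Of the 14 p53 response genes, 9 were at least 2-fold higher than the control in both AKI libraries and 6 in both CKD libraries, with medians of 1.43 and 1.14, and 0 were lower. Cdkn1a, which arrests the cell cycle, was at 2.79 UMIs per 10000 in the control, 12.2 and 10.1 in AKI, and 8.97 and 7.16 in CKD. Phlda3 was at 0.175, then 2.83 and 3.21, then 1.76 and 2.47, and Mdm2, the inhibitor of p53, at 0.331, then 1.74 and 1.33, then 1.09 and 0.829. The death effector Bax was at 0.773, then 2.92 and 2.86, then 2.17 and 2.05. Each treated library lay above the control for these 4 genes over the summed cells, but the kinds of cell differed. In CKD 1 and CKD 2, Cdkn1a was at 14.3 and 7.22 in Slc14a2-only cells, 1.83 and 0.226 in cells with both genes, and 3.33 and 12.5 in Fst-only cells. Phlda3 was at 2.84 and 1.18, 0.318 and 0, and 0.575 and 7.93 in the same order, and CKD 2 had 3 Fst-only cells. In the control, Cdkn1a was at 3.71 in Slc14a2-only and 0.0402 in Fst-only cells, and Phlda3 at 0.0866 and 0.0805. Gdf15 at 13.9 in the control and 14.3 to 20.6 in the treated libraries, and Btg2 at 23.3 and 15.7 to 21.8, moved less. Between CKD and AKI 0 of the 14 passed by edgeR and 4 had an unadjusted p under 0.05, beside 8.08% of all genes (median -0.47).

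**Figure D5:**
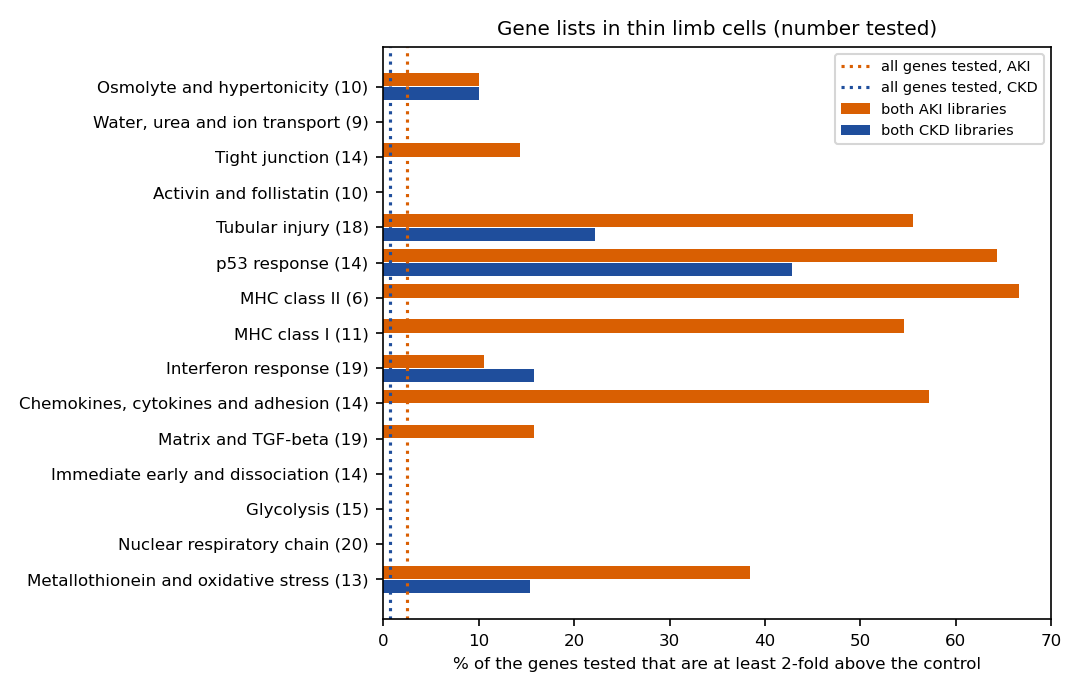
Percentage of the tested genes of each list (number tested in brackets) that were at least 2-fold above the control in both AKI libraries (orange bars) or both CKD libraries (blue bars) in thin limb cells, with the same percentage over all 9077 genes as dotted lines (2.51% and 0.661%). The p53 response, tubular injury, MHC and chemokine lists reach over 50% in AKI, and of these the p53 response stays highest in CKD.

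Immune genes were also higher in AKI. Of 11 MHC class I genes 6 were at least 2-fold above the control in AKI and 0 in CKD (medians 1.14 and 0.11), with H2-K1 at 5.0 UMIs per 10000 in the control, 14.1 and 13.1 in AKI, and 7.66 and 3.83 in CKD, and B2m, the shared light chain, at 3.56, then 9.11 and 10.2, then 6.19 and 2.76. Of 6 MHC class II genes 4 were higher in AKI and 0 in CKD (medians 2.07 and 1.43), where CKD 1 and CKD 2 lay far apart, with the invariant chain Cd74 at 7.23 and 0.336 against 0.589 in the control and 5.36 and 3.51 in AKI. MHC class II genes moved with markers of leukocytes. The MHC class II sum was 1.55 in the control, 10.2 and 7.59 in AKI, and 15.3 and 1.54 in CKD, and the sum of the 6 macrophage markers was 1.24, then 3.98 and 2.76, then 6.26 and 0.730, with 5 of the 6 higher in AKI. T lymphocyte markers summed to 0.00921, then 0.451 and 0.408, then 2.40 and 0.454, and T lymphocytes themselves held 14.2 to 40.5 of MHC class II genes, so the part of other cells' RNA in these levels was not tested. Of 14 chemokine, cytokine and adhesion genes 8 were higher in AKI and 0 in CKD (medians 1.17 and 0.27). The monocyte attractant Ccl2 was at 0.00921 in the control, 3.86 and 0.592 in AKI, and 0.208 and 0.0395 in CKD, so that AKI 1 stood apart from AKI 2. The TWEAK receptor Tnfrsf12a was at 1.44, then 4.45 and 4.53, then 2.15 and 2.31, and the adhesion molecule Icam1 at 0.589, then 1.5 and 1.85, then 0.851 and 0.651. Interferon response genes were higher in 2 of 19 in AKI and 3 of 19 in CKD (medians 0.60 and 0.37).

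Matrix and TGF-beta genes stood higher in AKI than in CKD. Of 19 tested, 14 were lower in both CKD libraries than in both AKI libraries and 1 was higher, beside 22.3% and 16.4% of all genes (median -0.76). By edgeR 0 passed and 12 had an unadjusted p under 0.05, as did 8.08% of all genes. In AKI 3 were at least 2-fold above the control and 1 below it (median 0.53), and in CKD 0 and 0 (median -0.32). The basement membrane collagen Col4a1 was at 2.57 UMIs per 10000 in the control, 4.39 and 3.73 in AKI, and 1.74 and 1.46 in CKD, and Pdgfb at 0.608, then 2.45 and 1.62, then 0.754 and 0.355. Timp3 ran the other way, at 25.5 in the control, 10.9 and 11.7 in AKI, and 17.0 and 19.6 in CKD. Of 9 transport genes 0 were 2-fold from the control in either group, with medians of -0.53 in AKI and -0.20 in CKD. Between the groups, 4 of the 9 were higher in both CKD than in both AKI libraries, beside 16.4% of all genes (median 0.48). Atp1b1, the beta subunit of the sodium pump, was at 30.1 in the control, 14.7 and 19.9 in AKI, and 27.2 and 26.3 in CKD, and its regulator Fxyd2 at 23.7, then 14.7 and 12.9, then 30.2 and 23.4. Both AKI libraries were below the control and both CKD libraries for these genes, which did not pass the test (adjusted p 0.400 and 0.207, edgeR). Of 10 osmolyte genes 1 was higher in AKI and 1 in CKD (medians -0.12 and -0.03), and Slc6a6 was at 9.71 in the control, 3.79 and 4.96 in AKI, and 6.58 and 7.24 in CKD.

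Of 13 metallothionein and oxidative stress genes 5 were higher in AKI and 2 in CKD (medians 0.81 and 0.77), with the metal buffer Mt1 at 5.97 UMIs per 10000 in the control, 16.3 and 13.9 in AKI, and 11 and 29.1 in CKD. Tight junction genes were higher in 2 and lower in 1 of 14 in AKI, and 0 and 1 in CKD (medians 0.24 and -0.09), and Cldn1 was the member past the test between CKD and AKI (median -0.14). Cldn3 was at 1.14 in the control, 2.60 and 4.37 in AKI, and 1.01 and 0.987 in CKD, and Cldn8 at 2.54, then 0.717 and 0.917, then 1.29 and 1.28. Immediate early genes were lower in 1 of 14 in AKI and 0 in CKD (medians -0.67 and -0.41), with Fos at 85.5 in the control and 40.4 to 52.9 in the treated libraries. Activin and follistatin genes (10 tested), glycolysis genes (15) and nuclear respiratory chain genes (20) had 0 genes 2-fold from the control in either group, with medians of -0.13, 0.18 and -0.12 in AKI and -0.41, 0.37 and 0.03 in CKD. Of the 14 thin limb markers not used by the rule, 1 was higher and 1 lower in AKI and 0 and 2 in CKD (medians -0.20 and -0.01), and the lower ones included Corin, at 2.03 in the control, 0.0161 and 0.133 in AKI, and 0.740 and 0.178 in CKD.

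Whether the change from AKI to CKD differed between thin limb and thick ascending limb was tested as an interaction with edgeR over the 4 treated libraries. Of 10212 genes 15 passed (0.147%), 7 with the more positive change in thin limb cells (0.0685%) and 8 with the more negative (0.0783%). Basp1 had the smallest adjusted p (-5.37 ± 0.41, 1.56e-04), as thick ascending limb cells held 0.0565 and 0.0218 UMIs per 10000 in AKI and 0.186 and 0.139 in CKD. Wnt10a was at 0.185 and 0.211 in thick ascending limb cells of AKI and 0.134 and 0.111 of CKD (-4.60 ± 0.65, 0.0307). Nupr1, a stress-induced transcriptional regulator, was at 21.7 and 21.6 in thin limb cells of AKI and 20.4 and 10.5 of CKD, against 6.80 and 5.45 and then 1.80 and 1.18 in the thick ascending limb (1.54 ± 0.23, 0.0349), and its difference was 0.60 without possible doublets (adjusted p 0.72, edgeR). The RNA binding protein Rbms3 was at 0.596 and 0.900 in thin limb cells of AKI and 1.34 and 1.89 of CKD, against 0.308 and 0.350 and then 0.0994 and 0.195 (2.44 ± 0.32, 0.0197). Without AKI 1 the interaction count was 4, and it was 50 without AKI 2, 48 without CKD 1 and 12 without CKD 2.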

How the data were processed

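Kidneys were dissociated with collagenase IV and DNase I, and droplet libraries (10x Chromium 3′) were sequenced. The authors deposited raw UMI counts per gene and barcode for 5 libraries, as made by their read aligner and cell caller, with no normalization. The submitters' notes name Cell Ranger 7.2.0 with STAR and GRCm39, whereas Cell Ranger 5.0.0 stands in the matrix headers for AKI and CKD, and mm10 in the gene list for the control. All libraries list the same 32285 genes, no coordinates are given, and counts were matched by gene identifier. The CellBender and doublet steps of the study, which kept fewer cells, are not in these counts. No doublet caller was run here: the rule leaves out cells with a Ptprc or Pecam1 UMI or with over 2 UMIs of Slc12a1 or Slc12a3, and an alternative leaves out thin limb cells with 2 or more UMIs of T lymphocyte or macrophage markers or with over 3 times the median UMIs of their library's thin limb cells.

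Levels are UMIs of a gene per 10000 UMIs summed over the cells of a library. Cells are not replicates, so UMIs were summed per library and tested by the quasi-likelihood method of edgeR (version 4.0.16, under R 4.3.3), after filterByExpr and TMM scaling, with Benjamini-Hochberg adjustment over all genes tested and a threshold of 0.05, with DESeq2 1.42.0 as an alternative. Python 3.11.15, numpy 2.4.6, scipy 1.17.1 and pandas 2.3.3 were used. T lymphocytes were kept cells with at least 1 Ptprc and 2 Cd3 UMIs (26231 cells). Genes of a cell rule got no test.

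Thin limb cells, comparisons and gene lists were chosen with earlier results of these data known, and no set test was made. Named were, for CKD against AKI, all genes past the threshold with at least 30 UMIs in the higher group; for each cell type comparison, the 12 with the largest difference in favour and the 4 against, with the same sign in every library and at least 0.5 UMIs per 10000; for the interaction, the 6 with the smallest adjusted p; and list members with high levels. Other list members and genes of the split by Slc14a2 and Fst were chosen after their values were seen.

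Simulated counts had 200 changed genes, the depth of the libraries and a common spread for all genes of a comparison. For CKD against AKI (9077 genes), 26% of 2-fold and 86% of 4-fold changes were recovered, with 7 false calls. The shares were 90% and 100% against the thick ascending limb (9203 genes, 6 false calls), and 85% and 98% against principal cells (9795 genes, 9 false calls). Alternatives were DESeq2 and its size factors, no filter on low counts, a mitochondrial limit of 15%, a rule sum of 5, cells without Aqp2, cells without possible doublets, a replicate block, each library left out and, added after the data had been seen, cells with at least 5000 UMIs and cells with Slc14a2. Some genes that these rules name are not reported here.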

Additional observations from a re-analysis of the deposited data

Results flagged for a closer look

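The change from AKI to CKD differed between thin limb and thick ascending limb cells in edgeR's interaction test for 6 genes reported here. The difference was -5.37 for Basp1, 5.58 for Psca, 2.44 for Rbms3, -4.60 for Wnt10a, 1.96 for Rasd1 and 1.54 for Nupr1 on the log2 scale, positive where the change was higher in thin limb cells. For Psca, a small membrane-anchored protein, the difference lay in the thick ascending limb, at 0.965 and 0.998 UMIs per 10000 in AKI and 0.0435 and 0.0278 in CKD, whereas thin limb cells held 0.0403 and 0.0417 and then 0.106 and 0. Without CKD 1 the Psca difference was -0.067, and it was 1.96 at a mitochondrial limit of 15% (adjusted p 0.85, edgeR). Rasd1, a small GTPase, was at 0.515 and 0.367 in thin limb cells of AKI and 0.860 and 1.70 of CKD, against 0.713 and 0.684 and then 0.379 and 0.639 in the thick ascending limb. The adjusted p was above 0.05 at a mitochondrial limit of 15% for Rbms3, Wnt10a and Nupr1, without possible doublets for Wnt10a, Rasd1 and Nupr1 (0.60 for Nupr1, adjusted p 0.72), without AKI 1 for Rbms3, Wnt10a, Rasd1 and Nupr1, without CKD 1 for Wnt10a and without CKD 2 for Rasd1. The part of cell composition within the thin limb cells in them was not tested.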

How the results depend on the processing

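The count of genes past the threshold between CKD and AKI (3) was 36 with DESeq2 (5 of them higher in CKD), 418 without a filter on low counts and 1 without possible doublets, and it ranged from 0 to 575 when 1 library was left out, 0 without either AKI library, 537 without CKD 1 and 575 without CKD 2. A lone library is then assumed to vary like the other group. Genes tested numbered 9077 in the main setting, 16766 without the filter and 2354 without possible doublets. With a replicate block the count was 12, but the labels do not say that the replicate numbers pair libraries. The correlation of deviations was -0.0341 over 9077 genes, which cannot decide this with 2 libraries per group. The block could not be added to the interaction, which already has the library as a block. The interaction was tested on 10212 genes, on 18406 without the filter and on 6719 without possible doublets. Without possible doublets 1400 of 6317 genes tested passed against the thick ascending limb and 1472 of 6533 against principal cells. Leaving out 1 library gave 2557 to 3078 and 2890 to 3511. For the interaction (15), the count was 8 with DESeq2, 26 with DESeq2 size factors, 187 without the filter, 5 at a mitochondrial limit of 15%, 48 without possible doublets, 47 in cells with at least 5000 UMIs, 43 in cells with Slc14a2 and 4 to 50 with 1 library left out. With 1 library left out, Psca in the interaction ran from -0.067 (without CKD 1) to 5.84, and Cldn4 against principal cells, which never passed, from -0.081 (without the control) to 0.26, with -0.066 at a mitochondrial limit of 15%. The difference in share between CKD and AKI ran from -0.241 to 0.791 percentage points with 1 library left out and from 0.178 to 0.304 under the other settings. The causes were not tested. The depth of CKD 1 and the 22 cells of CKD 2 limit what CKD values can show.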

Other observations

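Single cells set some levels in CKD 2. Prdx1, a peroxide reductase, was at 43.0 UMIs per 10000 in thin limb cells of CKD 2 against 5.27 to 6.85 in the other libraries, and 1 cell held 89.5% of its UMIs there, with 5.37 left without that cell. The cystine transporter Slc7a11 was at 0.967 in CKD 2 with all of its UMIs in 1 cell. Vim, an intermediate filament gene, was at 2.74 in CKD 2 with 86.3% of its UMIs in 1 cell, and the interferon gene Ifi27l2a at 2.20 in CKD 1 with 57.8% in 1 cell.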
